A study of Mus musculus with 17 samples.

Results

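The genes of synaptic vesicles and of regulated exocytosis were followed in the hypothalamus of diabetic, obese and control mice. The set was taken by symbol. It held the syntaxins, the syntaxin-binding proteins, the vesicle-associated membrane proteins and the synaptotagmins that carry a digit in their names. It also held every symbol that starts with Sv2, Cplx or Rab3, together with Snap25, Syn1, Syn2, Syp, Syngr1 and Nsf. These were 63 genes of the 12393 genes that the array measures with a probe set of 1 symbol, and they had 118 probe sets. The set grouped into 4 SNAREs of the nerve terminal, 9 SNARE partners, 14 synaptotagmins, 5 vesicle membrane proteins, 7 genes of the Rab3 cycle, 16 SNAREs of other membranes, and 8 Rab genes that share only the letters Rab3 (Rab30 to Rab38). Sv2b, Sv2c and Rab3gap1 are not analysed here.

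RNA came from whole hypothalami of male C57Bl/6 mice aged 9 weeks, with 1 Affymetrix array for each mouse. In 6 wild-type mice, diabetes had been induced by streptozotocin (STZ), a toxin taken up by the insulin-producing beta cells, given once into the peritoneum at 200 µg per g of body weight. Another 5 mice were ob/ob, which lack functional leptin in every tissue, overeat and become obese and insulin resistant. The 6 controls were wild-type mice injected with vehicle. Whether the ob/ob mice received an injection, and the time between injection and dissection, are not given in the sources used here, and neither are blood glucose or body weight. Each hypothalamus mixes neurons, glia and vessels, so fewer cells of a type and less RNA per cell cannot be told apart in any of the values.

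A synaptic vesicle fuses with the plasma membrane when the vesicle SNARE, a VAMP protein, zips together with the SNAREs of the plasma membrane, a syntaxin and SNAP-25. Syntaxin-binding proteins and complexins guide this assembly, synaptotagmins trigger it when calcium enters, and the ATPase NSF takes the spent complexes apart. In the hypothalamus the same machinery releases classical transmitters from small vesicles and, with partly different members, peptides such as vasopressin and oxytocin from large dense-core granules. Other syntaxins and VAMP proteins run fusion at the Golgi, the endosomes, the lysosomes and the autophagosomes of every cell.

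The bases just upstream of 3 of these genes show the range of control regions in the set. Stx17 and Vamp4 are shown because their probe sets gave the smallest p-values in the comparisons with control, and Syn1 because its window is the only one of the set that matches the start of RE1, an element of many neuronal genes. Each run is the 250 bases before the annotated start, on the strand of the gene, from RefSeq on the build GRCm38.p6. Capitals mark GGGCGG on either strand in Stx17 (chr4:48124669-48124918, + strand), CACGTG in Vamp4 (chr1:162570265-162570514, + strand, the more upstream of 2 annotated starts), and TTCAGCACC and TGACGTCA in Syn1 (chrX:20920919-20921168, - strand).
Stx17: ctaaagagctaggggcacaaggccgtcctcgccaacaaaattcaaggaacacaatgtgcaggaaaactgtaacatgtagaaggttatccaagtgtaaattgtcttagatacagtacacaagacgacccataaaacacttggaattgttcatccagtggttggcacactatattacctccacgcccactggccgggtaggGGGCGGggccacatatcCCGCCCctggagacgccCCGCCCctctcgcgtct
Vamp4: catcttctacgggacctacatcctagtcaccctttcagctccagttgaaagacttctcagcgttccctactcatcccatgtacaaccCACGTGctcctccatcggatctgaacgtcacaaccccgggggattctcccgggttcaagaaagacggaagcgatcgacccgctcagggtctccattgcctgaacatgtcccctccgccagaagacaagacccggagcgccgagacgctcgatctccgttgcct
Syn1: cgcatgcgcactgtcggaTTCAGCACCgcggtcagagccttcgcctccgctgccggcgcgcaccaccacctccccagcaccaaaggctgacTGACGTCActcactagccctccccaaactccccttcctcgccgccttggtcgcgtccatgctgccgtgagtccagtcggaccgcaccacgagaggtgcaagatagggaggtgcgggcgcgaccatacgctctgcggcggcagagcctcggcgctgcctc
GGGCGG is the GC box bound by Sp1-type factors, CACGTG is an E box, TGACGTCA is the full cAMP response element and TTCAGCACC is the first part of RE1, which the repressor REST binds. Stx17 carried 3 GC boxes, which begin 51, 34 and 17 bases before its start. The E box of Vamp4 began 163 bases before the start shown. In Syn1 the part of RE1 began 232 bases and the cAMP response element 159 bases before the start.

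RefSeq windows of 250 bases before to 50 bases after a start were found for 49 of the 63 genes, in 66 windows. No motif searched contains another. On either strand, GGGCGG was in 42 of the 66 windows (63.6%), against 35.7% of all windows of that length and 46.2% of those of protein-coding genes. CACGTG was in 10 windows (15.2%, against 7.15% of all windows), and besides Vamp4 its genes were Cplx3, Nsf, Rab3gap2, Rab3il1, Stx6, Stxbp2 and Syt6. TGACGTCA was in 2 windows, of Syn1 and Stxbp3 (3.03%, against 1.79%), and TTCAGCACC in 1, of Syn1 (1.52%, against 0.371%). TATAAA was in 3 windows, of Rab3b, Stx2 and Stx3 (4.55%, against 13.6%). These are matches of letters in a fixed window.

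All arrays had the same trimmed mean signal of 1500.4, correlations between 0.972 and 0.989 over the log2 signals of the tested probe sets, and 3 prime to 5 prime ratios of Gapdh and Actb that overlapped between groups. Of 10 hypothalamic marker genes on the array 9 passed the signal filter, Avp, Oxt, Hcrt and Pomc among them, and Otp did not. The median log2 fold change of the 9 was -0.12 in STZ and -0.29 in ob/ob against control. An unadjusted p under 0.05 was reached by 3 in STZ and 7 in ob/ob, against 8.51% and 12% of all tested genes. In each comparison 1 passed an adjusted p of 0.05. By geometric mean, Npy (3622 in STZ, 3448 in ob/ob, 2866 in control) and Avp (13864, 14020 and 12273) lay above control. The other tested hypothalamic markers lay below it in both models. Striatum, cortex and thalamus, regions that border the hypothalamus or lie near it, had 11 markers above the filter: 5, 1 (Mef2c) and 5. In that order their median log2 fold changes were 0.13, -0.071 and 0.13 in STZ and 0.29, 0.15 and 0.28 in ob/ob. The mean log2 level of the 11 markers ran from 10.43 to 10.83 in STZ, from 10.68 to 10.91 in ob/ob and from 10.23 to 10.73 in control hypothalami. It was 0.18 above control in STZ (exact two-sided permutation p = 0.0996) and 0.31 above control in ob/ob (p = 0.0173, exact permutation). Of the pituitary markers 0 of 5 passed the filter. General neuron markers, 10 in number, had a median log2 fold change of -0.039 in STZ and -0.073 in ob/ob. Of these 1 and 3 had an unadjusted p under 0.05, and 0 passed an adjusted p of 0.05. Rbfox3, Tubb3 and Uchl1 lay above control in both models and the others below. The neuron markers' mean log2 level ran from 12.71 to 12.80 in STZ, 12.68 to 12.74 in ob/ob and 12.71 to 12.83 in control hypothalami. Transthyretin (Ttr), the main product of the choroid plexus, read 945 to 10812 in ob/ob, 272 to 756 in STZ and 280 to 607 in control hypothalami. The highest signals, 4756 and 10812, were those of ob/ob 3 and ob/ob 4. Of 3 choroid plexus markers on the array Ttr alone passed the filter, and its signals here are those of a cross-hybridizing probe set. Another Ttr probe set lay under the filter, with geometric means of 38.8 in STZ, 555 in ob/ob and 33.0 in control hypothalami. Also under the filter, Kl had geometric means of 235 in STZ, 260 in ob/ob and 226 in control hypothalami, and Folr1 of 343, 293 and 295. With the level of the neighbouring regions as a covariate in the fit, the log2 fold change moved by over 0.1 for 4 of the 51 tested member genes in STZ and for 9 in ob/ob, and their values stand beside the result. For Stx17, Vamp4 and Rab33a values without ob/ob 3 and ob/ob 4 are also given. The other ob/ob hypothalami read 945 to 1028 for Ttr, still above every STZ and control signal. No member gene passed the adjusted threshold with the covariate or without those arrays, and none passed in the main fit. What part tissue of neighbouring regions or choroid plexus has in the values was not tested.

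The deposited values were MAS5 signals, an intensity per probe set on a linear scale. After a filter on the mean signal over all 17 arrays, 86 probe sets of 51 member genes were tested. The other 12 genes had no probe set above it: Cplx3, Cplx4, Rab3d, Rab30, Rab32, Rab37, Rab38, Stx19, Syt8, Syt10, Syt12 and Vamp5. A probe set of Stx19 was the dimmest of these on average (5.1 to 99.3 over the 17 arrays) and a probe set of Syt8 reached the highest single signal (588). Log2 fold changes came from a limma fit of all 17 arrays and are given with their standard errors, and a gene is described by its brightest probe set unless another is named. The p-values are of limma's moderated test, and adjusted ones were corrected by the Benjamini-Hochberg method over all 13576 probe sets tested. They set each group difference against the spread between these mice, 1 array each. limma draws that spread toward the one usual for probe sets of similar signal.

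In STZ hypothalami 0 of the 86 member probe sets passed an adjusted p of 0.05, against 0.0516% of all tested probe sets (7 of 13576), and the smallest adjusted p was 0.284, for a probe set of Vamp4. At an unadjusted p under 0.05 there were 3 member probe sets above control (background 3.87%) and 3 below (background 4.38%). Together these are 6.98% of the members, where 8.24% of all tested probe sets reached that p. Counted by gene, 3 of 51 reached it, all above control: Cplx1, Rab34 and Stx17. That is 5.88% of the member genes, against 8.51% of all 7990 genes tested (4.26% above control and 4.26% below). The median log2 fold change was 0.030 over the 51 genes and 0.0044 over all tested genes, and the members ran from -0.20 (Stxbp4) to 0.25 (Rab3b). The signals of STZ and control hypothalami overlapped for all 86 probe sets, and 0.567% of all tested probe sets did not overlap.

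In ob/ob hypothalami 0 of the 86 member probe sets passed, against 0.125% of all tested probe sets (17 of 13576), and the smallest adjusted p was 0.0687, for Stx17. An unadjusted p under 0.05 was reached by 4 member probe sets above control (background 5.75%) and 6 below (background 6.12%), 11.6% of the members against 11.9% of all tested. By gene it was reached by 3 above control (Stx17, Stxbp3 and Rab33a) and 2 below (Stxbp4 and Vamp8). These are 9.80% of the member genes, against 12% of all tested genes (6.5% above control and 5.53% below). The members' median log2 fold change was 0.032, against 0.0053 over all tested genes, and their range was -0.36 (Stxbp4) to 0.30 (Stx17). Signals of ob/ob and control hypothalami did not overlap for 3 member probe sets, both of Stx17 and 1 of Vamp4, where 1.91% of all tested probe sets did not overlap (0.84% with ob/ob higher and 1.07% with ob/ob lower). At an unadjusted p under 0.05 the members' shares were thus close to or under the background shares in both comparisons. The share without overlap was 3.49% of the member probe sets in ob/ob, against 1.91% of all tested. In STZ it was 0%, against 0.567%. Both comparisons use the same 6 controls, so their fold changes are not independent of each other.

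**Figure D1:**
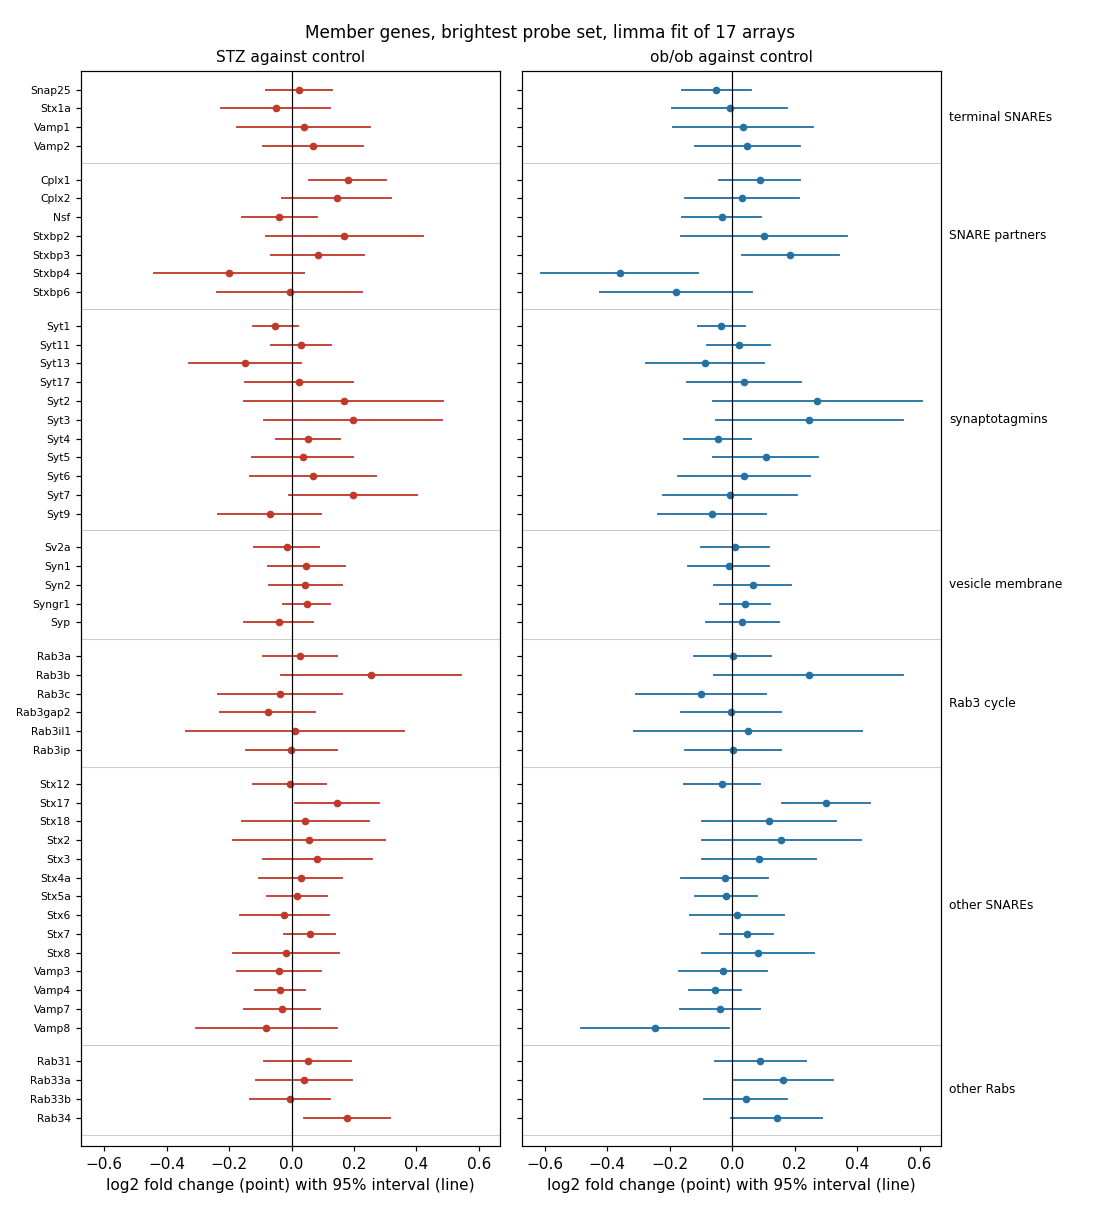
Log2 fold change of each of the 51 tested member genes (brightest probe set), STZ against control on the left and ob/ob against control on the right, with 95% intervals from the limma fit, grouped by role. Terminal SNAREs and vesicle membrane proteins lie close to 0. Stx17 and Stxbp4 in ob/ob lie farthest from 0, at 0.30 and -0.36.

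The core of the release machinery differed little from control. For each of its 13 tested genes (Snap25, Stx1a, Vamp1, Vamp2, Nsf, Cplx1, Cplx2, Syt1, Syn1, Syn2, Syp, Sv2a and Rab3a) the 95% interval of the fold change lay between 0.8 and 1.25 in STZ against control, in ob/ob against control and in ob/ob against STZ. Over all 7990 genes tested this held for 74.3% in STZ and 69.6% in ob/ob against control. The 51 member genes reached 84.3% and 74.5%. Of the core genes 12 are among the brightest 25% of probe sets, where intervals are shorter, and there 95.3% of all 2076 genes in STZ and 93.1% in ob/ob kept within these limits. The largest log2 fold change of the core was 0.18 in STZ, for Cplx1, and 0.088 in ob/ob, also for Cplx1.

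Snap25, the plasma membrane SNARE that contributes a pair of helices to the complex, read 23877 to 28166 in STZ hypothalami, with a median of 26932. The ob/ob hypothalami read 26369, 23847, 24898, 23805 and 26163, and controls ran from 22877 to 28195 with a median of 26193. The 3 groups overlapped throughout, with a fold of 1.02 in STZ (95% interval 0.946 to 1.09) and 0.965 in ob/ob (0.894 to 1.04). Stx1a, its partner on the plasma membrane, averaged 1347 in STZ, 1386 in ob/ob and 1394 in control hypothalami (geometric means, as in all such averages below). Its log2 fold change was -0.050 ± 0.084 in STZ and -0.0083 ± 0.088 in ob/ob.

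The vesicle SNAREs of the terminal also lay near control. Vamp2, the main vesicle SNARE of forebrain synapses, had signals of 13145 to 17423 in STZ hypothalami (median 15285). In ob/ob it read 17329, 14695, 14975, 14186 and 14795, and in controls 12447 to 16857 (median 15282). The log2 fold change of Vamp2 was 0.068 ± 0.077 in STZ and 0.048 ± 0.081 in ob/ob, and its dimmer probe set gave -0.086 and -0.083. Vamp1, the vesicle SNARE used more in brainstem and spinal cord, averaged 6744 in STZ, 6728 in ob/ob and 6567 in control hypothalami, with a range of 4935 to 8423 among controls. The 4 terminal SNAREs thus spanned log2 fold changes of -0.050 to 0.068 in STZ and of -0.051 to 0.048 in ob/ob. In either comparison 0 of 4 had an unadjusted p under 0.05, against 8.51% of all tested genes in STZ and 12% in ob/ob.

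**Figure D2:**
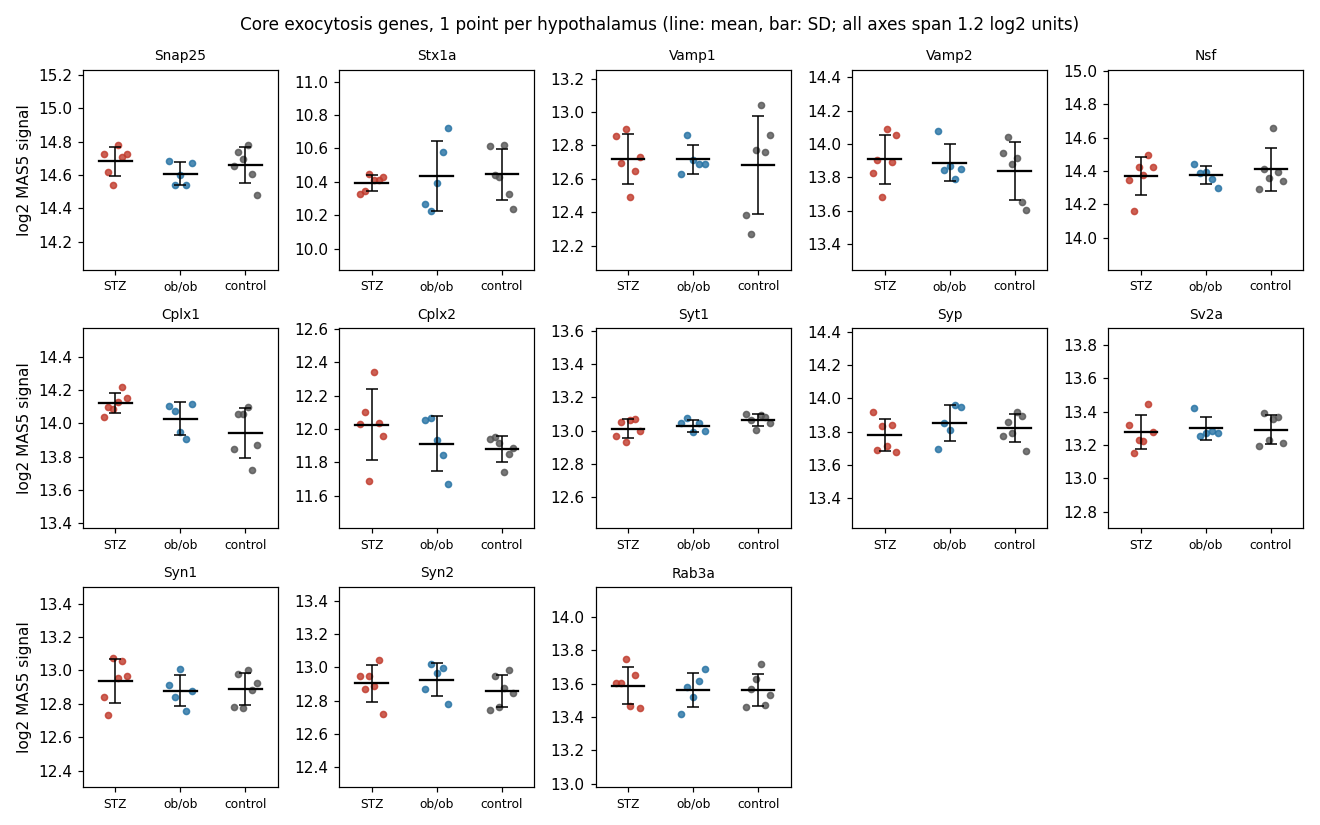
Log2 MAS5 signal of the 13 core exocytosis genes in each hypothalamus (6 STZ, 5 ob/ob, 6 control), with the mean as a line and the SD as a bar. The groups overlap in every panel, and Cplx1 shows the largest offset, with STZ above control by 0.18. Every axis spans the same distance, so spreads can be compared between panels but levels cannot.

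Among the SNARE partners, Nsf, the ATPase that recycles SNARE complexes, read 18302 to 23086 in STZ hypothalami, 22252, 21471, 21543, 20920.4 and 20151 in ob/ob hypothalami and 20099 to 25831 in controls. In log2 terms Nsf differed from control by -0.039 ± 0.057 in STZ and -0.034 ± 0.060 in ob/ob. The highest control, control 4, stood apart from the other 5, which ended at 21785. The 7 tested partners had a median log2 fold change of 0.083 in STZ and 0.032 in ob/ob, with 1 above control in STZ and 1 above and 1 below in ob/ob at an unadjusted p under 0.05 (8.51% and 12% of all tested genes reached that p in STZ and in ob/ob).

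Complexins bind the assembled SNARE complex, hold it ready and are needed for fast release. Cplx1 gave the smallest p of any member gene in STZ. Its brightest probe set read 16839.5, 17536, 17418, 17879, 19086 and 18227 in STZ, 17584, 17224, 15817, 15324 and 17756 in ob/ob and 14692, 17034, 17028, 17541, 13496 and 14981 in control hypothalami. The STZ signals lay between 16839.5 and 19086, above 3 of the 6 controls and overlapping the other 3. The log2 fold change was 0.18 ± 0.059 in STZ (unadjusted p = 0.0064, adjusted p = 0.383) and 0.088 ± 0.062 in ob/ob (adjusted p = 0.622). The 2 other tested probe sets of Cplx1 lay below control in STZ, at -0.016 ± 0.039 and -0.11 ± 0.077, so the positive value belongs to 1 of 3 probe sets. The mean of the 3 gave 0.020 in STZ. Cplx2 averaged 4169.6 in STZ, 3854 in ob/ob and 3770.5 in control hypothalami, with log2 fold changes of 0.15 ± 0.084 (limma, unadjusted p = 0.0982) and 0.032 ± 0.088. The STZ hypothalami ranged from 3304 to 5182, wider than the controls (3423 to 3959.5), and the STZ value was 0.082 without STZ 4 and 0.21 without STZ 3.

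Among the tested syntaxin-binding proteins (Stxbp2, Stxbp3, Stxbp4 and Stxbp6) 1 gene lay above and 1 below control in ob/ob at an unadjusted p under 0.05. Over all tested genes 6.5% lay above and 5.53% below control in ob/ob at that p. Stxbp3, known as Munc18c, chaperones syntaxin 4 and takes part in insulin-driven insertion of glucose transporters in fat and muscle. It read 2270.1, 2019.8, 1974, 1926 and 1982 in ob/ob hypothalami, against 1533 to 2036 in controls (median 1756). In ob/ob the log2 fold change was 0.19 ± 0.074 (unadjusted p = 0.021, adjusted p = 0.316), with ob/ob 1 highest. In STZ, with signals of 1678 to 2068, it was 0.083 ± 0.071.

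Stxbp4, or synip, also binds syntaxin 4 and is regulated by insulin signalling in fat cells. It read 727, 708, 603, 916 and 645 in ob/ob, 622 to 997 in STZ (median 801) and 844 to 1121 in control hypothalami (median 887). Of the 5 ob/ob signals 4 lay below all controls, and ob/ob 4, at 916, lay within their range. The log2 fold change in ob/ob was -0.36 ± 0.12 (unadjusted p = 0.0074, adjusted p = 0.23) and in STZ -0.20 ± 0.12 (adjusted p = 0.681). With the level of the neighbouring regions as a covariate the values were -0.57 in ob/ob (adjusted p = 0.365) and -0.32 in STZ (adjusted p = 0.526). Stx4a, the syntaxin these 2 proteins bind, averaged 1487 in STZ, 1433 in ob/ob and 1457 in control hypothalami, with log2 fold changes of 0.030 and -0.024. Stxbp6, or amisyn, an inhibitor of SNARE assembly, had log2 fold changes of -0.0059 ± 0.11 in STZ and -0.18 ± 0.12 in ob/ob. Stxbp2, or Munc18-2, which serves secretion in blood and epithelial cells, had 0.17 ± 0.12 and 0.10 ± 0.13, from a cross-hybridizing probe set only.

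Of the 14 synaptotagmins 11 were tested, and 0 of 11 reached an unadjusted p under 0.05 in STZ or in ob/ob. Over all tested genes 8.51% reached that p in STZ and 12% in ob/ob, so a count of 0 in so few genes is near the background. Syt1, the calcium sensor of fast synchronous release, read 7803 to 8604 in STZ, 8455, 8632, 8132, 8454 and 8169 in ob/ob and 8209.8 to 8779 in control hypothalami. For Syt1 the log2 fold change was -0.052 ± 0.034 in STZ and -0.035 ± 0.036 in ob/ob, with fold intervals of 0.918 to 1.01 and 0.927 to 1.03. The second probe set of Syt1 pointed the other way, at 0.089 and 0.047. Syt4 and Syt11, which do not bind calcium in the usual way and sit on dense-core granules and trafficking vesicles, had log2 fold changes of 0.054 and 0.031 in STZ and of -0.047 and 0.020 in ob/ob.

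Syt7, a slow calcium sensor with high affinity that also acts in insulin granule release, averaged 546 in STZ, 474 in ob/ob and 476 in control hypothalami. Syt7 had a log2 fold change of 0.20 ± 0.098 in STZ (limma, unadjusted p = 0.0573) and -0.0070 ± 0.10 in ob/ob. Syt9, another sensor of fast release, had -0.070 ± 0.079 and -0.064 ± 0.083, and Syt13, an atypical member without calcium binding, had -0.15 ± 0.086 and -0.086 ± 0.091. Syt5, Syt6 and Syt17 ranged from 0.025 to 0.067 in STZ and from 0.038 to 0.11 in ob/ob, where Syt17 moved to 0.14 with the neighbouring-region covariate.

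Syt2 and Syt3 had wide spreads, and of the 51 genes their values moved most when the level of the neighbouring regions was taken into the fit. They were singled out after their values were seen. Syt2, the fast sensor of many brainstem, thalamic and inhibitory neurons, read 1977, 1944, 1739, 2047 and 2135 in ob/ob, 1195 to 2145 in STZ (median 1979) and 1231 to 2414 in control hypothalami (median 1577). Its log2 fold change was 0.27 ± 0.16 in ob/ob and 0.17 ± 0.15 in STZ, and with the covariate -0.016 and -0.0060. Syt3, a sensor with high calcium affinity found at and around the synapse, averaged 827 in ob/ob, 798 in STZ and 697 in control hypothalami. It had log2 fold changes of 0.25 ± 0.14 in ob/ob and 0.20 ± 0.14 in STZ. With the covariate these became 0.63 (unadjusted p = 0.000364, adjusted p = 0.243) and 0.42 (adjusted p = 0.383).

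All 5 proteins of the vesicle membrane and surface lay close to control. Syp, or synaptophysin, the most used marker of synaptic vesicles, read 13132 to 15461 in STZ, 13266, 14784, 14352, 15951 and 15834 in ob/ob and 13192 to 15489 in control hypothalami. Set against control, Syp had a log2 fold change of -0.042 ± 0.053 in STZ and 0.032 ± 0.056 in ob/ob. Syn1 and Syn2, the synapsins that tether vesicles to actin, had 0.047 ± 0.059 and 0.044 ± 0.056 in STZ and -0.012 ± 0.062 and 0.066 ± 0.059 in ob/ob. Sv2a, a vesicle glycoprotein and the binding site of the drug levetiracetam, had -0.015 ± 0.050 in STZ and 0.0087 ± 0.052 in ob/ob, with ob/ob 1 (10978) apart from the other 4 (9775 to 9985). Syngr1, or synaptogyrin, had 0.048 ± 0.037 and 0.040 ± 0.038. The 5 intervals of the fold change all lay between 0.8 and 1.25 in both comparisons.

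Of the Rab3 cycle, Rab3a, the GTPase that binds vesicles to the release site, read 11232 to 13733 in STZ, 10935, 12224, 11757, 12536 and 13184 in ob/ob and 11245 to 13476 in control hypothalami. Rab3a thus had a log2 fold change of 0.026 ± 0.057 in STZ and 0.0017 ± 0.059 in ob/ob. Rab3b, a relative found in endocrine cells and some inhibitory neurons, read 2137, 2195, 1606, 1557 and 2427 in ob/ob, 1658, 2375, 1702, 2893, 1579 and 1895 in STZ and 1659, 2002, 1506, 1589, 1666 and 1518 in control hypothalami. The range was wider in STZ and ob/ob than in control hypothalami, and the log2 fold changes of 0.25 ± 0.14 in STZ (limma, unadjusted p = 0.0794) and 0.24 ± 0.14 in ob/ob (unadjusted p = 0.106) did not pass. With the neighbouring-region covariate the ob/ob value of Rab3b was 0.14. Rab3c had -0.037 ± 0.095 in STZ and -0.10 ± 0.10 in ob/ob, and its dimmer probe set, singled out after its values were seen, -0.17 ± 0.071 in ob/ob (unadjusted p = 0.027, adjusted p = 0.343). Rab3gap2, a subunit of the enzyme that switches Rab3 off, had -0.077 and -0.0037. Rab3ip and Rab3il1, exchange factors that act on Rab8 and related GTPases, lay between -0.00035 and 0.050. With the covariate Rab3gap2 was at -0.12 and Rab3il1 at 0.19 in ob/ob.

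The SNAREs of other membranes held the smallest p-values of the set. Stx17, the syntaxin of the completed autophagosome, which drives its fusion with the lysosome, had higher signals in ob/ob on both of its tested probe sets. The brighter one read 1758, 2052, 1725, 1899 and 1834 in ob/ob, 1589, 1754, 1532, 1600.1, 1815 and 1698 in STZ and 1454, 1651, 1649, 1498, 1447 and 1337 in control hypothalami. Every ob/ob signal lay above every control signal, and the STZ signals lay between, overlapping both groups. The log2 fold change in ob/ob was 0.30 ± 0.067, a fold of 1.23 with a 95% interval of 1.12 to 1.36 (unadjusted p = 0.000248, adjusted p = 0.0687), so the value did not pass the threshold. In STZ it was 0.15 ± 0.064 (unadjusted p = 0.0343, adjusted p = 0.555). Without control 2 the adjusted p in ob/ob was 0.0485, and it reached 0.156 without ob/ob 2, so the side of the threshold turns on single arrays. Without ob/ob 3 and 4 together the log2 fold change was 0.32 (adjusted p = 0.173), and with the neighbouring-region covariate it was 0.29 (adjusted p = 0.446, the largest over all alternatives tried for it).

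The dimmer probe set of Stx17, singled out after its values were seen, read 1327, 1308, 1402, 1271 and 1497 in ob/ob against 1143, 1198, 1193, 1148, 1201 and 1196 in control hypothalami, again without overlap. Its log2 fold change was 0.20 ± 0.065 in ob/ob (unadjusted p = 0.00516, adjusted p = 0.201). In STZ, with signals of 1177 to 1466, it was 0.12 ± 0.062 (limma, unadjusted p = 0.0567). The window with 3 GC boxes shown for Stx17 is the only RefSeq window of the gene.

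Vamp4, a SNARE of the trans-Golgi network and endosomes that also takes part in bulk retrieval of synaptic membrane, gave different answers from its 3 tested probe sets. These probe sets were singled out after their values were seen. The one of middle brightness read 3742, 4029, 3878, 4077 and 3345 in ob/ob, 4022, 3869.6, 4215, 3795, 3712 and 3931 in STZ and 4391, 4136, 4328, 4441, 4643 and 4554 in control hypothalami. All ob/ob signals lay below all control signals, and of the STZ signals only STZ 3, at 4215, reached above the lowest control, at 4136. The log2 fold change was -0.21 ± 0.052 in ob/ob (unadjusted p = 0.000523, adjusted p = 0.0885) and -0.17 ± 0.049 in STZ (unadjusted p = 0.00251, adjusted p = 0.284). The dimmest gave -0.18 ± 0.074 in ob/ob and -0.15 ± 0.071 in STZ (adjusted p = 0.341 and 0.576), and without ob/ob 5 its ob/ob value was -0.11. The brightest, which stands for the gene in the counts, gave -0.056 ± 0.040 and -0.037 ± 0.038, with fold intervals of 0.908 to 1.02 in ob/ob and 0.922 to 1.03 in STZ. Without ob/ob 3 and 4 the middle probe set was at -0.26 in ob/ob (adjusted p = 0.150).

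**Figure D3:**
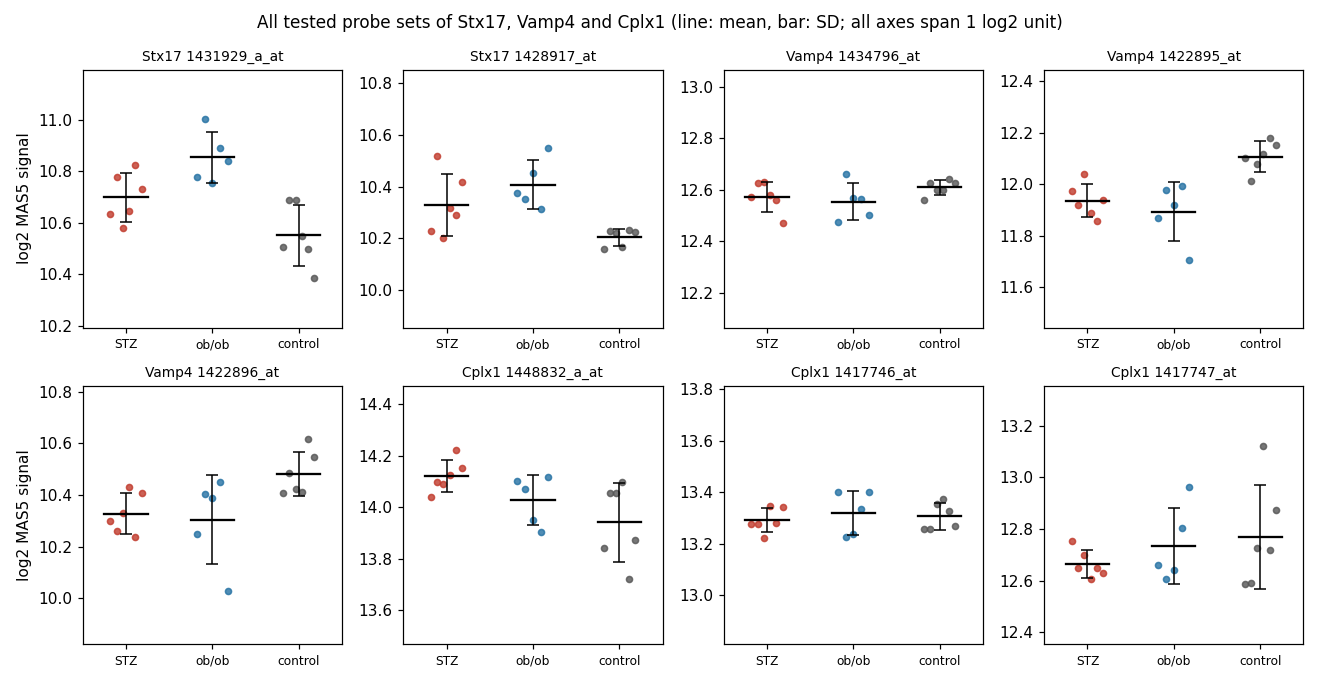
Log2 MAS5 signal of every tested probe set of Stx17, Vamp4 and Cplx1 in each hypothalamus, with the mean as a line and the SD as a bar, and the same span on every axis. Both probe sets of Stx17 place all 5 ob/ob hypothalami above all 6 controls. For Vamp4 the 2 dimmer probe sets lie lower in STZ and ob/ob while the brightest lies near control, and for Cplx1 only the brightest places STZ above control.

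Vamp8, the late endosomal SNARE that pairs with syntaxin 17 at the lysosome, read 627, 529.6, 556, 876 and 740.1 in ob/ob, 669 to 796 in STZ and 689 to 881 in control hypothalami. The log2 fold change of Vamp8 was -0.25 ± 0.11 in ob/ob (unadjusted p = 0.0423, adjusted p = 0.396) and -0.081 ± 0.11 in STZ, with overlap of all groups. Vamp7, a lysosomal SNARE that also serves neurite growth, had -0.040 ± 0.062 in ob/ob and -0.031 ± 0.059 in STZ, and its dimmer probe set, singled out after its values were seen, -0.15 ± 0.066 in ob/ob (adjusted p = 0.361). Stx6, a syntaxin of the trans-Golgi network, had -0.023 ± 0.069 in STZ and 0.015 ± 0.072 in ob/ob. Its cross-hybridizing probe set, also singled out, gave -0.15 ± 0.058 in STZ (unadjusted p = 0.0154, adjusted p = 0.467).

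The remaining SNAREs of this group did not reach an unadjusted p under 0.05. Stx7 of late endosomes had 0.058 ± 0.039 in STZ and 0.047 ± 0.041 in ob/ob, and Stx12 of recycling endosomes had -0.0057 ± 0.056 and -0.033 ± 0.059. Stx5a of the Golgi had 0.017 ± 0.045 and -0.020 ± 0.048, and Stx18 of the endoplasmic reticulum had 0.045 ± 0.098 and 0.12 ± 0.10. With the neighbouring-region covariate Stx18 was at 0.16 in STZ and 0.31 in ob/ob (unadjusted p = 0.024, adjusted p = 0.577). Stx2, Stx3, Stx8 and Vamp3, which serve the plasma membrane and endosomes, ranged from -0.040 to 0.083 in STZ and from -0.029 to 0.16 in ob/ob, where Stx2 was at 0.26 with the covariate. Over the 14 tested genes of the group 7 lay above control and 7 below in each comparison, with medians of 0.0059 in STZ and -0.0023 in ob/ob. In ob/ob, 1 of the 14 was above and 1 below control at an unadjusted p under 0.05, and in STZ 1 was above. Over all tested genes 6.5% were above and 5.53% below in ob/ob, and 4.26% were above in STZ.

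The 4 tested Rab genes outside the Rab3 family work at the Golgi, endosomes and lysosomes. Rab34, which positions lysosomes and serves the primary cilium, read 1957 to 2462 in STZ (median 2166), 1997, 2076, 2154, 2127 and 2449 in ob/ob and 1849.8 to 2253 in control hypothalami (median 1899.5). Rab34 had a log2 fold change of 0.18 ± 0.066 in STZ (unadjusted p = 0.0143, adjusted p = 0.461) and 0.14 ± 0.070 in ob/ob (limma, unadjusted p = 0.0533), and both groups overlapped with control. For ob/ob the overlap was through control 1, at 2253, alone. Rab33a, a brain-rich relative of the Golgi protein Rab33b, read 1525, 1558, 1588, 1907 and 1490.1 in ob/ob against 1232 to 1634 in control hypothalami. Its log2 fold change was 0.16 ± 0.077 in ob/ob (unadjusted p = 0.0475, adjusted p = 0.412) and 0.039 ± 0.073 in STZ. Without ob/ob 3 and 4, the ob/ob value was 0.086, ob/ob 4 holding the highest signal, and with the neighbouring-region covariate it was 0.078. Rab33b and Rab31 had -0.0052 and 0.052 in STZ and 0.043 and 0.091 in ob/ob.

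The 2 models were also set against each other, ob/ob against STZ. Of the 86 member probe sets 0 passed, against 0.0368% of all tested probe sets (5 of 13576), and the smallest adjusted p was 0.9996. An unadjusted p under 0.05 was reached by 1 probe set (1.16% of the members, against 3.93% of all tested and 1.93% in that direction), that of Stx17, higher in ob/ob, at 0.15 ± 0.067 (limma, unadjusted p = 0.0329). Signals did not overlap for 0 member probe sets, against 0.42% of all. The members' median was 0.0024, against 0.0022 over all tested genes, and their range was -0.20 (Syt7) to 0.15 (Stx17). For Stxbp4, Vamp8 and Rab33a, named in ob/ob against control, the difference between ob/ob and STZ was -0.16 ± 0.12, -0.17 ± 0.11 and 0.12 ± 0.077. For Cplx1 and Rab34, named in STZ against control, it was -0.092 ± 0.062 and -0.035 ± 0.070. None of these 5 differences had an unadjusted p under 0.05, so a difference between the models was not shown for them.

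Probe sets of the same gene often disagreed in sign at this size of difference. Of the 25 tested genes with several probe sets, all probe sets had the same sign in 11 genes in STZ and in 13 genes in ob/ob. The median distance between the highest and the lowest log2 fold change of a gene was 0.060 in STZ and 0.082 in ob/ob, close to the median standard error of the members (0.071 and 0.074). The widest was that of Cplx1 in STZ, at 0.29, and that of Stx6 in ob/ob, at 0.23.

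How closely mice of the same group resembled each other differed widely between members. The SD between arrays within groups was smallest for Syt1, at 0.045 on the log2 scale, followed by Syngr1 (0.053), Vamp4 (0.055) and Stx7 (0.055). It was largest for Rab3il1 (0.31), Syt2 (0.30), Rab3b (0.27) and Syt3 (0.26), all 4 above the interquartile range of probe sets of similar signal. The median was 0.12 over the 51 member genes, 0.11 over the 13 core genes and 0.13 over all 7990 genes tested. Among the brightest 25% of probe sets the 19 member genes had a median of 0.10 and all 2076 genes 0.091. In all, 13 of the 51 member genes (25.5%) stood above that range for their signal, against 23.5% of all tested genes. Of the 13 core genes 7 did: Vamp1, Vamp2, Cplx1, Cplx2, Nsf, Syn1 and Rab3a.

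**Figure D4:**
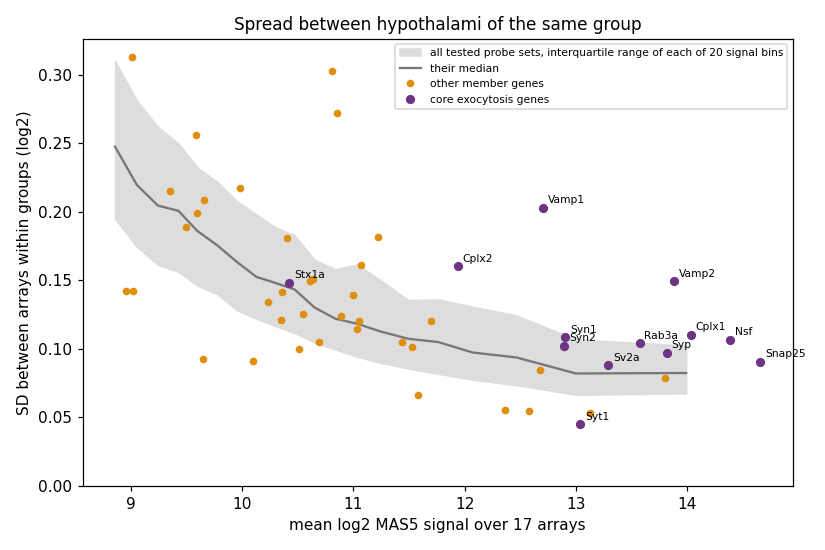
SD between hypothalami of the same group against the mean log2 MAS5 signal over 17 arrays, for the 51 tested member genes (points) and for all tested probe sets (grey band, interquartile range of each of 20 signal bins, with the median as a line). Syt1 lies lowest, at 0.045. Of the 51 genes 13 lie above the band, Syt2, Rab3b and Vamp1 by the most relative to its upper edge.

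Other genes of the vesicle cycle, taken from a list of 72 that the symbols above do not cover, were read from the same fit. Of these 57 were on the array with a single symbol and 54 were tested, with 0 passing in STZ (smallest adjusted p = 0.357) and 0 in ob/ob (0.213). At an unadjusted p under 0.05, 3 were above and 1 below control in STZ, and 3 above and 2 below in ob/ob, with medians of -0.0067 and 0.0036. The shares over all tested genes were 4.26% above and 4.26% below in STZ and 6.5% and 5.53% in ob/ob, so these counts lay near or under the background. Bin1, an amphiphysin that shapes endocytic membrane, had the smallest p in both. It averaged 5429 in STZ, 5444 in ob/ob and 4333 in control hypothalami, with log2 fold changes of 0.33 ± 0.10 (limma, unadjusted p = 0.00475) and 0.33 ± 0.11 (limma, unadjusted p = 0.00609). Scamp5, a vesicle membrane protein, and Dnajc5, the vesicle chaperone CSP-alpha, had 0.15 ± 0.054 and -0.15 ± 0.060 in STZ. In ob/ob, Ap2b1, a subunit of the clathrin adaptor AP-2, had -0.35 ± 0.11 (adjusted p = 0.218), and Sh3gl2, or endophilin A1, had 0.24 ± 0.097. The 11 tested genes of the active zone, where vesicles dock, had a median of -0.074 in STZ and 0.026 in ob/ob, with 0 of 11 at an unadjusted p under 0.05 in either.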

How the data were processed

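The authors deposited 1 MAS5 signal, in the unit intensity, per probe set and array, and MAS5 is named in the submitters' processing notes, with no version. Per the labels' protocols, biotin-labelled cRNA was made from 10 µg of RNA of each mouse. From the values, all arrays share a 2% trimmed mean, and no genome build is given in the sources used here. Signals were taken as log2. After 64 control probe sets were left out, a floor was set at percentile 40 of the log2 signal averaged across the 17 arrays (a geometric mean of 435), and 13576 probe sets lay above it. Each gene took its brightest probe set, and a cross-hybridizing _x_at one only where there was no other.

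limma 3.58.1 in R 4.3.3 fitted 3 group means (lmFit, then eBayes with a trend, 14 residual degrees of freedom), with Benjamini-Hochberg adjustment over all probe sets and a threshold of 0.05. Symbols came from the platform annotation, and all 63 matched RefSeq's gene table. Named genes were the 13 core members, and in each comparison the members with an unadjusted p under 0.05 on the representative probe set, up to 6 each way (4 for ob/ob against STZ). Other members served as examples of their role. From the 72 vesicle cycle genes the 3 with the smallest p in each comparison with control were named. The members, lists and tests were chosen with earlier results of these data known. The number of arrays limits the precision.

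The procedure was tested on simulated data over 13576 probe sets, with independent normal noise and 50 probe sets changed at each of the log2 sizes 0.25, 0.50, 1.00 and 2.00. Changes of 0.25, 0.50 and 1.00 were found again at rates of 26, 86 and 98% in STZ against control. In ob/ob against control the rates were 28, 72 and 96%, and 4.35 and 3.27% of calls were false. The fits of the real data called only 7 and 17 probe sets. The rates depend on how many probe sets change, so they can be too high for these data. Replicate numbers come from the sample titles, which state no pairing. Alternatives covered the filter, normalization, an offset of 50 before the log, the samples fitted, the variance model, array weights, a replicate block, the region covariate, the mean of a gene's probe sets and each array left out. Leaving out ob/ob 3 and 4 together was added after the data were seen.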

Additional observations from a re-analysis of the deposited data

Results flagged for a closer look

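For the 19 named genes, each group of 5 or 6 hypothalami was searched for a highest or lowest array whose gap to the nearest other is large for the range of the group (Dixon's test at 95%). This marked 7 of 57 groups, where chance alone marks about 1 in 20, and in all 7 it was the highest array. Among the core genes, Vamp2 read 17329 in ob/ob 1, with the other ob/ob hypothalami between 14186 and 14975, and Sv2a read 10978 in the same mouse, with the others between 9775 and 9985. Nsf read 25831 in control 4, against 20099 to 21785 in the other controls. Stxbp3 read 2270.1 in ob/ob 1, against 1926 to 2019.8 in the other ob/ob hypothalami. Rab33a read 1907 in ob/ob 4, against 1490.1 to 1588 in the others. In controls, Rab34 read 2253 in control 1 with the others between 1849.8 and 1974, and Stxbp4 read 1121 in control 5 with the others between 844 and 923.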

How the results depend on the processing

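No member gene passed the adjusted threshold in any comparison under any alternative that kept all arrays, or without ob/ob 3 and 4 together. With 1 array left out, the count of passing member genes stayed 0 to 0 in STZ against control and in ob/ob against STZ, and was 0 to 1 in ob/ob against control, where the 1 was Stx17 without control 2 (adjusted p = 0.0485, log2 fold change between 0.26 and 0.33 over all 11 left-out arrays). At an unadjusted p under 0.05, STZ against control had 3 member genes, 5 with no filter or with only the 2 groups fitted, 6 with array weights or the region covariate, and 2 to 5 with an array left out (5 each without control 2, STZ 1 or STZ 3). For ob/ob against control there were 5, 7 with no filter, 3 with a 60th percentile filter or only the 2 groups fitted, and 2 to 6 with an array left out (2 without control 2, 3 each without ob/ob 2 or 3). For ob/ob against STZ there was 1, 2 with no filter or without the eBayes trend, 3 without ob/ob 3 and 4, 0 with the region covariate, and 0 to 4 with an array left out (0 without STZ 1 or ob/ob 2, 2 without STZ 3 or ob/ob 1, 4 without ob/ob 4). The median log2 fold change of the members in ob/ob against control was 0.0063 with the mean of a gene's probe sets and also 0.0063 without control 6, and in STZ against control it was 0.013 without STZ 6. In the main fit 8.51% of all tested genes had an unadjusted p under 0.05 in STZ against control and 12% in ob/ob against control. The shares over all tested genes under the alternatives are not given here. Whether the member counts moved with the background therefore cannot be told from them. The cause of these changes was not tested.

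The titles state no pairing by replicate number. Deviations of same-numbered arrays correlated between -0.17 and 0.11, over 0.1 in only 1 of 16 pairs. No values for differently numbered arrays are given here, so these correlations cannot settle whether the numbers pair mice. With the replicate block, which shares only the number, 0 member genes passed in each comparison. The unadjusted counts were 3, 4 and 0, also without a background share under that fit. Stx17 in ob/ob was at 0.29 (adjusted p = 0.116).

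Small values of the core genes changed sign, all without passing. In ob/ob against control these were Snap25 (0.0045), Nsf (0.013) and Syn1 (0.0066) with quantile normalization, Syn1 (0.018) and Rab3a (-0.00063) with array weights, Rab3a with the replicate block (-0.014) and without ob/ob 3 and 4 (-0.0013), Syn1 (0.052), Syp (-0.035) and Sv2a (-0.029) with the covariate, and Stx1a (0.013), Vamp2 (-0.017) and Syt1 (0.0063) with the mean of probe sets. In STZ against control they were Snap25 (-0.0093) with the covariate, and Vamp2 (-0.0088) and Syt1 (0.018) with the mean of probe sets. With 1 array left out, values in STZ ran from -0.012 to 0.052 for Snap25, -0.044 to 0.11 for Vamp1, -0.063 to 0.011 for Nsf, -0.049 to 0.0091 for Sv2a and -0.0056 to 0.057 for Rab3a. In ob/ob they ran from -0.080 to 0.045 for Stx1a, -0.048 to 0.11 for Vamp1, -0.00050 to 0.088 for Vamp2, -0.057 to 0.015 for Nsf, -0.0063 to 0.093 for Cplx2, -0.044 to 0.019 for Syn1, -0.022 to 0.029 for Sv2a and -0.029 to 0.038 for Rab3a. The 32 of 118 probe sets under the signal filter were tested only in the fit with no filter.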

Other observations

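Among the vesicle cycle genes outside the set, Ap2b1, a subunit of the clathrin adaptor that gathers cargo for endocytosis, differed most between the 2 models, and it was singled out after its values were seen. It averaged 2129 in ob/ob against 2959 in STZ hypothalami, with 2713 in controls, a log2 difference between ob/ob and STZ of -0.47 ± 0.11 (limma, unadjusted p = 0.000528, adjusted p = 0.401).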
